A study of Mus musculus with 24 samples.

Results

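The comparison of mutant with normal retina at 3 months of age rested on 6 of the 24 arrays of the series, 3 from P347S+ mice and 3 from P347S- mice, chosen by the genotype and age in their sample titles. All 1246 probe sets of the array were read in each. P347S is a rhodopsin mutation carried by a transgenic mouse line in which rod photoreceptors die slowly, and the P347S- mice were the normal controls of the same age. Whole retina was used, and the sex of the animals was given as unknown. The strain, the promoter of the transgene and the number of animals behind an array were not given in the sources used here. Nor is it said that each array stands for another animal, so that p-values measure only the spread between these samples, which may be technical.

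Rhodopsin is the light-sensing protein of rods, and mutations in it are a well-known cause of retinitis pigmentosa, in which rods die first. In a degenerating retina microglia, the resident macrophages, and Müller glia, the radial glia that span the tissue, are known to react. Glycans on proteins, lipids and proteoglycans are built by transferases in the endoplasmic reticulum and the Golgi, trimmed in lysosomes and read by lectins. They also affect how growth factors, chemokines and morphogens reach their receptors, and the array carried genes of all these groups.

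Values are log2 signals made by the authors with RMA, on which a difference of 1 is a doubling. Array medians at 3 months lay between 5.18 and 5.31, and precision is limited by having 3 arrays a group. Of the probe sets 963 could be matched to 909 genes, and 283 stayed unnamed. A listed gene is called measured only if a named probe set matched it. Other listed genes may lie among the unnamed probe sets, so counts of lists cover matched genes only. Rhodopsin itself was not analysed here, and of 19 rod markers listed only Gnb1, a transducin subunit, was measured, at 12.62 to 12.78 in mutant and 12.64 to 13.26 in normal retinas (difference -0.20 ± 0.12, adjusted p = 0.258). No cone, bipolar, amacrine, horizontal cell or complement gene of the lists was measured. In these bulk samples fewer cells of a type and less RNA per cell cannot be told apart. Grifin, a lens gene that reads high in 3 arrays of other ages, was at 5.69 to 5.73 in mutant and 5.81 to 6.0 in normal retinas of 3 months. Dcn (decorin), of connective tissue around the retina, read 5.69, 5.09 and 5.87 in mutant replicates 1 to 3 and 4.40, 4.81 and 5.14 in normal replicates 1 to 3, a difference of 0.77 ± 0.51 (adjusted p = 0.326). Mutant replicates 1 and 3 lay above all normal arrays, and mutant replicate 2 lay below the highest of them.

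Mutant retinas of 3 months had more of a mucin-like selectin ligand, an EGF-family growth factor, leukocyte adhesion molecules, microglial receptors and several growth factor and morphogen receptors. They had less of Galnt4, an enzyme that starts O-glycans, of Chst3, which sulfates chondroitin, and of the Notch ligand Jag1. The O-GalNAc and chondroitin lists had calls both ways, with Galnt13 and Dsel higher, and medians of 0.024 and -0.00022. The receptor rises were not shifts of whole lists. Growth factor receptors had 2 calls in 17, both up, near the 12% of all probe sets. Calls up and down numbered 5 and 1 in 37 for TGF-beta signalling (median 0.052). They were 3 and 1 in 18 for Notch and 3 and 3 in 34 for Wnt and hedgehog (medians -0.11). Second probe sets of Egfr (0.073) and Tgfbr2 (-0.003) did not pass. At an adjusted p under 0.05 (limma, Benjamini-Hochberg over all probe sets), 150 of 1246 probe sets passed, or 12%. Of these 83 (6.66%) were higher in mutant retinas and 67 (5.38%) lower. The rises had a median log2 difference of 0.51 and ranged from 0.24 to 2.51, while the falls had a median of -0.36 and ranged from -1.95 to -0.25. Over all probe sets the median was -0.056, and 370 had an unadjusted p under 0.05. The 3 mutant and 3 normal arrays did not overlap for 406 probe sets (32.6%), with the mutant higher in 164 (13.2%) and lower in 242 (19.4%). Of the 150 calls 146 (11.7%) also showed no overlap.

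**Figure D1:**
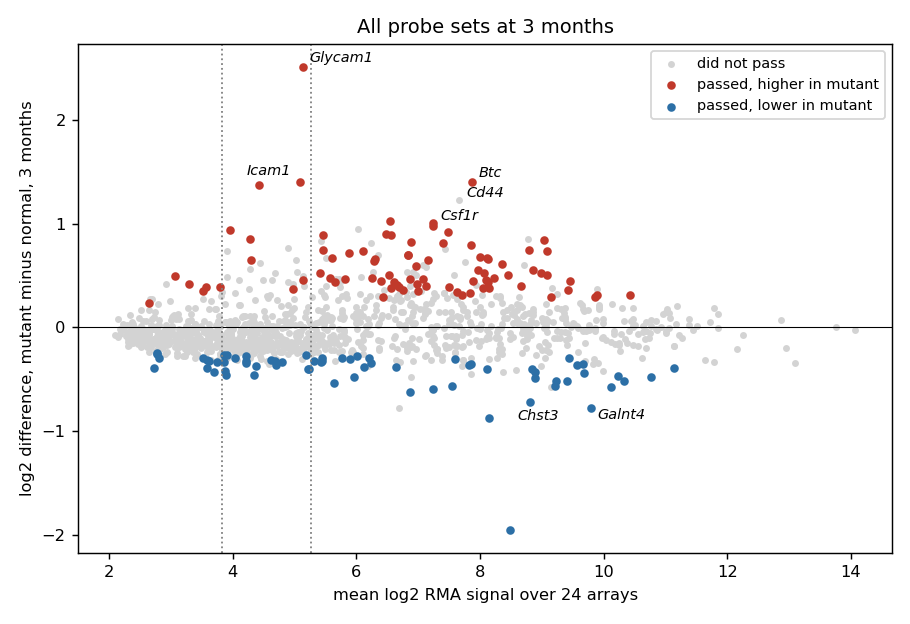
Log2 difference between mutant and normal retinas at 3 months (vertical axis) against mean log2 RMA signal over the 24 arrays (horizontal axis) for the 1246 probe sets; dotted lines mark the 25th percentile (3.83) and the median (5.26) of mean signal. Red points are the 83 that passed and were higher in mutant retinas, blue points the 67 that passed and were lower, and grey points did not pass.

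The plot of difference against signal shows where the calls lay. Among the 83 rises 14 were below the median signal of 5.26, against 28 of the 67 falls. Without mutant replicate 2 this contrast was gone, since 4 and 12 of the 61 rises and 0 and 3 of the 15 falls lay in the lower and upper of the 2 dimmer groups given next. Of the 312 probe sets of lowest mean signal, up to 3.83, 6 rose and 10 fell, with a median difference of -0.082. Of the next 311, up to 5.25, 8 rose and 18 fell (median -0.12). Of the 311 up to 7.61, 38 rose and 17 fell (median 0.037), and of the 312 above these 31 rose and 22 fell (median 0.0023). The level of background is not known from these files, so the folds of genes under 5.26 are uncertain.

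The count of calls depended on single arrays. Without mutant replicate 2 it fell to 76 (61 higher, 15 lower), without mutant replicate 3 to 66 (38 and 28), without normal replicate 1 to 81 (57 and 24) and without normal replicate 2 to 69 (40 and 29). Without mutant replicate 1 or normal replicate 3 it was 148 and 147. With each of the 6 arrays left out in turn, 44 of the 150 calls passed every time, 33 rises and 11 falls; such calls are described below as held. Mutant replicate 3 was the highest mutant array for 57 of the 83 rises, and for 627 of all 1246 probe sets. Mutant replicate 2 was the lowest for 41 of the 67 falls, and for 571 of all probe sets.

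**Figure D2:**
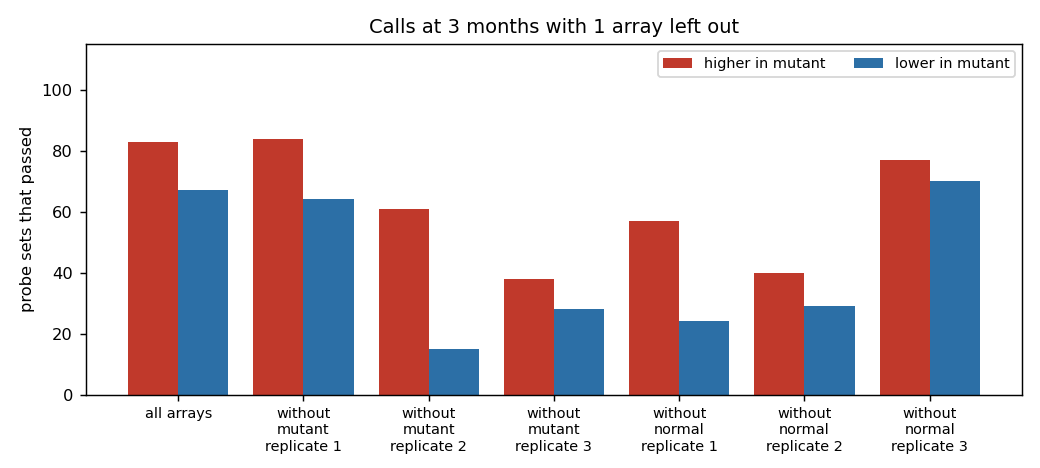
Number of probe sets that passed at 3 months (vertical axis), higher (red) or lower (blue) in mutant retinas, with all arrays and with each of the 6 arrays of 3 months left out in turn (horizontal axis). Totals range from 66 without mutant replicate 3 to 148 without mutant replicate 1, against 150 with all arrays, and the falls drop to 15 without mutant replicate 2.

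Glycam1, a mucin-like glycoprotein known as a ligand of L-selectin, had the largest rise. Its signal was 5.76, 5.86 and 7.01 in mutant replicates 1 to 3 and 3.77, 3.88 and 3.45 in normal replicates 1 to 3. All mutant arrays lay above all normal ones, with mutant replicate 3 highest. The difference was 2.51 ± 0.54 (SE), or 5.69-fold (adjusted p = 0.00496), and it held. The normal arrays lay close to the 25th percentile of signal, 3.83, and the suffix s of the probe set marks probes common to several transcripts. No other of the 9 selectins and ligands measured passed, and Cd34, another known ligand, gave 0.15 ± 0.14 (adjusted p = 0.506).

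Betacellulin (Btc), a secreted ligand of the EGF receptor family, read 8.74, 8.64 and 8.67 in mutant and 7.13, 7.28 and 7.46 in normal retinas. The mutant arrays lay close together and all above the normal ones. It was 2.63-fold higher (1.40 ± 0.25, adjusted p = 0.00164) and held. Its receptor Egfr was at 6.01, 5.96 and 6.13 in mutant against 5.32, 5.30 and 5.49 in normal retinas, again without overlap (0.67 ± 0.11, adjusted p = 0.00126), and held. A second Egfr probe set gave 0.073 ± 0.11 and did not pass.

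Icam1, an adhesion molecule that leukocytes bind, read 4.92, 4.90 and 6.09 in mutant and 4.04, 3.77 and 3.99 in normal retinas. Mutant replicate 3 stood well above the other mutant arrays, yet these also lay above every normal array. The difference was 1.37 ± 0.23, or 2.58-fold (adjusted p = 0.00152), and it held.

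On the falling side Galnt4, a transferase that adds GalNAc to proteins to start O-glycans, read 9.65, 9.30 and 9.13 in mutant against 9.99, 10.21 and 10.21 in normal retinas. Chst3, which puts 6-O-sulfate on chondroitin, read 8.63, 8.50 and 8.40 against 9.18, 9.28 and 9.25, and Jag1, a membrane-bound Notch ligand, 10.0, 9.56 and 9.61 against 10.28, 10.25 and 10.36. For each of the 3 genes every mutant array was below every normal array. The differences were -0.78 ± 0.11 (adjusted p = 4.05e-04), -0.72 ± 0.13 (adjusted p = 0.00155) and -0.57 ± 0.11 (adjusted p = 0.00239), and all 3 held.

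The 250 bases before the RefSeq start (GRCm38.p6) are shown for the largest rises and falls with a probe set free of a suffix and a single window in the table, because these genes moved without overlap between the groups. Capitals mark a match, on either strand, to one of 3 motifs searched. These were GGGRNWYYCC as the NF-kB consensus, TTCNNNGAA of STAT factors and TAATCC, the core bound by the photoreceptor factor CRX. In them R is A or G, Y is C or T, W is A or T and N is any base. Only full matches were marked, so a site that departs from a pattern at a single base is not shown. The windows are chr5:91402995-91403244 (minus strand) for Btc, chr9:21015690-21015939 (plus) for Icam1, chr10:60219261-60219510 (minus) for Chst3 and chr2:137116521-137116770 (minus) for Jag1.
Btc: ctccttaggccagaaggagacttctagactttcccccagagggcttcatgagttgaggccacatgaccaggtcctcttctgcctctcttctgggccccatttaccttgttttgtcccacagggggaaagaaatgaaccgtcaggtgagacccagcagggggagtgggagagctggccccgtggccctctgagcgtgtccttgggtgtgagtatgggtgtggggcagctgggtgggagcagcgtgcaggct
Icam1: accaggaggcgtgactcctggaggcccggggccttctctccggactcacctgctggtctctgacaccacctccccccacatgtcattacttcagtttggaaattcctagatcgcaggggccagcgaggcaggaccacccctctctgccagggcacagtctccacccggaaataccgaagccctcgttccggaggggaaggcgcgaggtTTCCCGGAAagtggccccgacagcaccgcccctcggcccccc
Chst3: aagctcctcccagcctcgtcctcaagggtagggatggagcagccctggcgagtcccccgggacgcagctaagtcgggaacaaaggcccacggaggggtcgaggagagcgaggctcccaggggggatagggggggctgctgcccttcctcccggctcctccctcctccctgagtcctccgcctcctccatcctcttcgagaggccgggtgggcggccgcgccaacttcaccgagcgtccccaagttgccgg
Jag1: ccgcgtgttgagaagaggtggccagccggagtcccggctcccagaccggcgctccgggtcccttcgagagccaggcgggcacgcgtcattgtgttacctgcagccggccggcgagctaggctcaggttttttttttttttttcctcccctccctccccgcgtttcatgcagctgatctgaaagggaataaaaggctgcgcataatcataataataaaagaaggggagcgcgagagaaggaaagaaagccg
The Icam1 window holds 1 match, TTCCCGGAA, whose first base lies 42 bases before the start. The STAT motif was found in 7.23% of the 22862 windows of all genes with a single one, in 6.96% of the 589 such windows of genes on the array, in 5 of the 46 such windows of genes that rose (10.9%) and in 3 of 34 of genes that fell (8.82%). The NF-kB consensus was found in 3.7% of all windows and 5.77% of those on the array, in 3 of the rises (6.52%) and 1 of the falls (2.94%). TAATCC was found in 6.58% and 4.92%, in 2 of the rises (4.35%) and 1 of the falls (2.94%). The TTCNNNGAA match does not overlap another motif in the Icam1 window, and a match describes letters only.

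**Figure D3:**
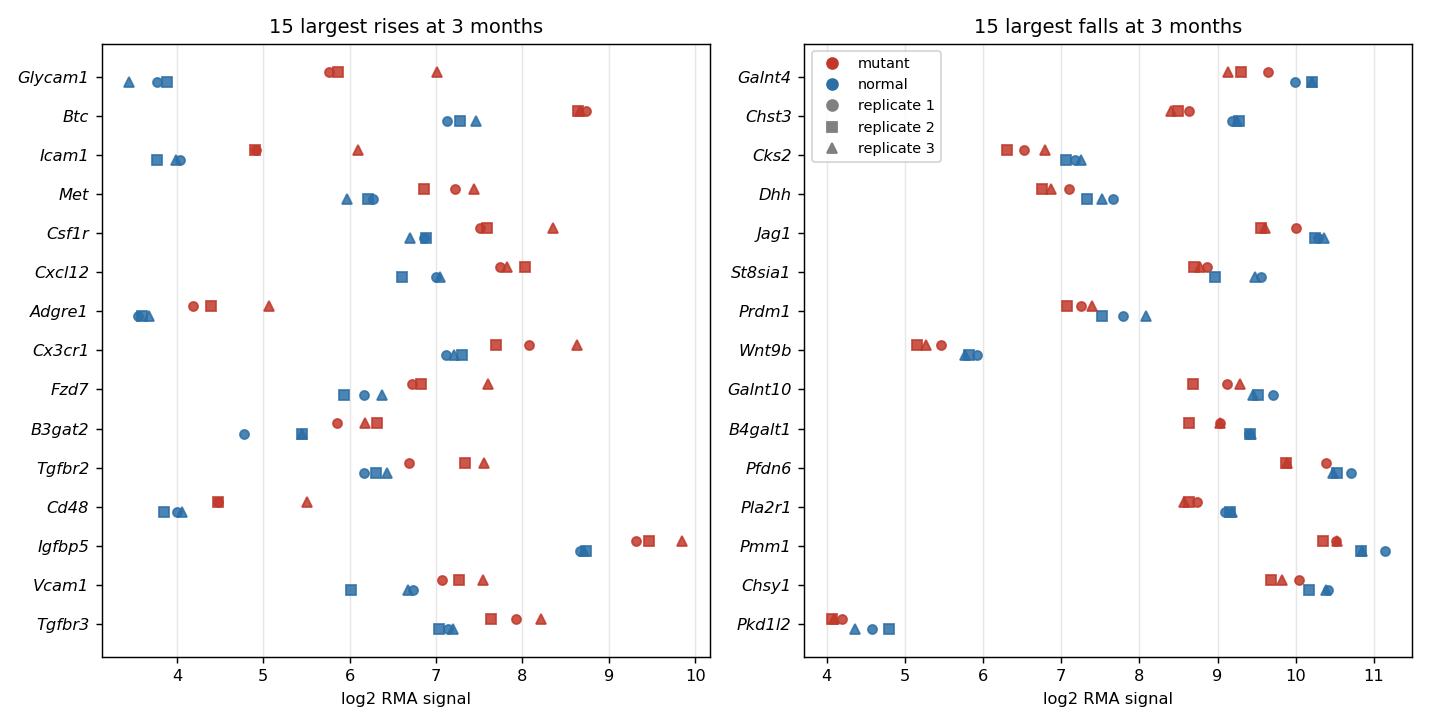
Log2 RMA signal (horizontal axis) in each of the 3 mutant (red) and 3 normal (blue) retina arrays of 3 months for the 15 named probe sets with the largest rises (left) and falls (right) among those that passed without overlap; marker shapes give the replicate number. For every gene all red points lie on the same side of all blue points.

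Several microglial receptors rose. Of 27 genes of the microglia and macrophage list only 8 were matched to a probe set, and others may be among the unnamed ones. Of these 4 rose and none fell, against 6.66% and 5.38% of all probe sets. The median difference was 0.49, against -0.056 over all probe sets. The mean signal of the 8 genes was 5.52 to 6.02 in the mutant arrays and 5.20 to 5.26 in the normal ones. Csf1r, the receptor that keeps microglia alive, read 7.51, 7.59 and 8.35 in mutant and 6.86, 6.88 and 6.70 in normal retinas (1.01 ± 0.19, adjusted p = 0.00174). All mutant arrays were above all normal ones, with mutant replicate 3 highest. Adgre1 (F4/80), a macrophage surface receptor, read 4.18, 4.39 and 5.07 against 3.55, 3.59 and 3.68 (0.94 ± 0.20, adjusted p = 0.0045), and Cx3cr1, the fractalkine receptor of microglia, 8.07, 7.69 and 8.63 against 7.11, 7.30 and 7.21 (0.92 ± 0.20, adjusted p = 0.00496). These 3 genes showed no overlap and held. Siglech, a siglec family member found on microglia, rose by 0.46 ± 0.13 (adjusted p = 0.0296), and its other probe sets by 0.50 and 0.35. The calls of all 3 probe sets were lost without mutant replicate 3 and without normal replicate 1 or 2. Siglec1 (-0.19 ± 0.10, adjusted p = 0.213) and the mannose receptor Mrc1 (-0.018 ± 0.12, adjusted p = 0.937), which mark other macrophages, did not pass. Csf1, the ligand of Csf1r, rose by 0.39 ± 0.10 (adjusted p = 0.02), a call lost without mutant replicate 3 (adjusted p = 0.121) and without normal replicate 1 or 3, and its second probe set gave 0.26 ± 0.11 (adjusted p = 0.114).

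Of 26 genes of the reactive Müller glia and astrocyte list only 6 were measured, and Gfap and Vim were not among them. Of the 6, 3 rose and none fell, with a median of 0.76, against 6.66% and 5.38% of all probe sets. Their mean ran from 6.41 to 7.07 in mutant retinas and from 5.69 to 5.97 in normal ones. Besides Icam1, Vcam1, an adhesion molecule for integrins, read 7.07, 7.26 and 7.54 against 6.73, 6.02 and 6.67 (0.82 ± 0.17, adjusted p = 0.00388), and held. Normal replicate 2 was the low one, and the groups still did not overlap. Fgf2, a growth factor known to rise in stressed retina, was 0.39 ± 0.10 higher at a low signal (adjusted p = 0.0199), and this call was lost without mutant replicate 1 or 3 or without normal replicate 1 or 2. Of the other members Cd44, the hyaluronan receptor of reactive Müller glia, gave 1.23 ± 0.50 (adjusted p = 0.108), with 7.70, 8.13 and 8.60 in mutant against 7.14, 6.59 and 6.99 in normal retinas. Its groups did not overlap at 3 months, and its error is that of the fit over all 24 arrays. Junb, an immediate early transcription factor, gave 0.70 ± 0.23 (adjusted p = 0.0525) and Lgals1, galectin-1, 0.18 ± 0.33 (adjusted p = 0.734). Icam1 and Vcam1 are also made by endothelium, and which cells carried their rises was not tested. Of 18 endothelial and pericyte markers listed 9 were measured, and none passed (median -0.05). Mcam gave 0.31 ± 0.11 without overlap (adjusted p = 0.0777). The mean signal of the 9 was 4.83 to 5.08 in mutant retinas and 4.89 to 5.04 in normal ones. After centring each array, or quantile normalization, 1 of the 9 rose. The blood and lymphocyte list gave no call among 4 genes, at means of 3.98 to 4.11 against 4.07 to 4.19. Of 13 resting Müller glia markers listed only 2 were measured, Hes1 and Notch1, which are also in the Notch pathway list below. They rose by 0.40 ± 0.11 and 0.67 ± 0.14, and only the Notch1 call held. What share of these differences comes from the number of such cells was not tested.

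Of 9 adhesion molecules 3 rose and none fell, against 6.66% and 5.38% of all probe sets. The rises were Icam1, Vcam1 and the leukocyte antigen Cd48 (0.85 ± 0.21, adjusted p = 0.0111). Cd48 read 4.48, 4.48 and 5.51 in mutant against 4.00, 3.85 and 4.06 in normal retinas, and its call was lost without mutant replicate 3 (adjusted p = 0.062) and without normal replicate 2 (adjusted p = 0.0506). Of 29 chemokines only Cxcl12, a stromal chemokine that guides leukocytes and progenitors, passed. It read 7.74, 8.03 and 7.82 against 7.0, 6.6 and 7.05, without overlap (0.98 ± 0.16, adjusted p = 0.00136), and held, but its second probe set gave 0.028 ± 0.23 (adjusted p = 0.949). Among the chemokine receptors Cx3cr1 rose, as given above, and Cxcr6, a receptor of T cells, fell by 0.39 on the log2 scale (adjusted p = 0.0307). Cxcr6 lies below the 25th percentile of signal, and its call did not hold.

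Among 47 cytokine receptors 5 rose and 4 fell (median 0.016), against 6.66% and 5.38% of all probe sets, and 4 of the 9 calls held. Il10rb, a shared chain of the interleukin-10 family receptors, read 6.27, 6.13 and 6.66 against 5.66, 5.58 and 5.67, a gap that every mutant array kept (0.72 ± 0.13, adjusted p = 0.00174). Il1r1, the interleukin-1 receptor, read 6.43, 6.56 and 7.28 against 6.15, 5.97 and 6.17 (0.66 ± 0.15, adjusted p = 0.00886). Il6st (gp130), the signal chain shared by interleukin-6, CNTF and LIF, rose by 0.55 ± 0.13 (adjusted p = 0.0115), but not without mutant replicate 3 (adjusted p = 0.0633) or normal replicate 2 (adjusted p = 0.0699). Il2rb, a chain of the interleukin-2 receptor, fell by 0.42 on the log2 scale (adjusted p = 0.00344) at signals between 3.65 and 4.29, and held. Of 34 interleukins, interferons and TNF ligands Csf1 rose and Il5 and Il27 fell, and none of these held.

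Growth factors and their receptors passed about as often as all probe sets (12%). Of 17 growth factor receptors 2 rose, Egfr and Met, and both held. Of 43 growth factors 4 rose, Btc, Fgf2, Fgf13 and Igf1, of which Btc held, and without mutant replicate 3, normal replicate 1 or normal replicate 2 it was the 1 call left. Met, the receptor of hepatocyte growth factor, read 7.22, 6.86 and 7.44 in mutant against 6.27, 6.21 and 5.97 in normal retinas (1.03 ± 0.21, adjusted p = 0.00384), with no overlap, and held. Fgfr2 gave 0.81 ± 0.51 (adjusted p = 0.295) and Pdgfra 0.76 ± 0.30 (adjusted p = 0.105).

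Of 37 genes of TGF-beta, activin and BMP signalling 5 rose and 1 fell (median 0.052), against 6.66% and 5.38% of all probe sets. Tgfbr2, Tgfbr3 and Acvr1 held. Without mutant replicate 3 or normal replicate 1, 3 rises and no fall remained in number. Tgfbr2, the ligand-binding TGF-beta receptor, read 6.69, 7.33 and 7.55 against 6.16, 6.30 and 6.43, with mutant replicate 1 lowest but above all normal arrays (0.89 ± 0.18, adjusted p = 0.00344). A second Tgfbr2 probe set gave -0.003 ± 0.089. Tgfbr3 (betaglycan), a proteoglycan co-receptor, read 7.92, 7.64 and 8.22 against 7.14, 7.03 and 7.19 (0.81 ± 0.18, adjusted p = 0.00658). Acvr1, a type I receptor for activins and BMPs, read 8.35, 8.48 and 8.42 against 7.94, 7.35 and 7.93 (0.68 ± 0.13, adjusted p = 0.00252). Neither gene's groups overlapped. The BMP receptors went opposite ways, Bmpr1b by 0.45 ± 0.12 and Bmpr1a by -0.36 ± 0.089, and neither held. Igfbp5, which binds insulin-like growth factors, read 9.32, 9.47 and 9.85 against 8.67, 8.74 and 8.71 (0.84 ± 0.18, adjusted p = 0.00555), and held. Igf1 was 0.38 ± 0.12 higher (adjusted p = 0.0379), and did not hold. The other 10 of 12 genes of that list did not pass, Igfbp7 with 0.85 ± 0.80 (adjusted p = 0.496).

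Notch, Wnt and hedgehog genes are given against the 6.66% of all probe sets that rose and the 5.38% that fell. Of 18 genes of the Notch pathway 3 rose, Notch1, Notch2 and the target gene Hes1, and Jag1 fell. Notch1 read 8.36, 8.73 and 8.78 in mutant against 7.88, 7.82 and 8.15 in normal retinas (0.67 ± 0.14, adjusted p = 0.00471), without overlap, and held. Notch2 (0.55 ± 0.17, adjusted p = 0.0393) and Hes1 (0.40 ± 0.11, adjusted p = 0.0253) were both lost without mutant replicate 1 or 3 or normal replicate 2, among others. The median of the list was -0.11. Of 34 Wnt and hedgehog genes 3 rose and 3 fell (median -0.11). The rises were receptors, the Wnt receptors Fzd7 (0.90 ± 0.20, adjusted p = 0.00779) and Fzd1 (0.70 ± 0.15, adjusted p = 0.00443) and the hedgehog transducer Smo (0.44 ± 0.12, adjusted p = 0.0206), and the falls were ligands, Wnt9b, Wnt6 and Wnt8a. Without mutant replicate 3 the list had 1 rise and 1 fall. Fzd7 was lost there (adjusted p = 0.0549), and of the 3 rises and 3 falls only Fzd1 and Wnt9b held. Wnt6 was lost without mutant replicate 2 or 3 or normal replicate 1. Wnt9b read 5.46, 5.16 and 5.27 against 5.93, 5.82 and 5.77, every mutant array lower (-0.54 ± 0.09, adjusted p = 0.00127), and held. Outside these counts, the hedgehog ligand Dhh fell at one probe set (-0.59 ± 0.18, adjusted p = 0.0326) and gave -0.45 ± 0.15 (adjusted p = 0.0525) at the other. Shh, also a hedgehog ligand, went the other way. Its 2 probe sets gave 0.35 and 0.36, and 1 of them passed.

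**Figure D4:**
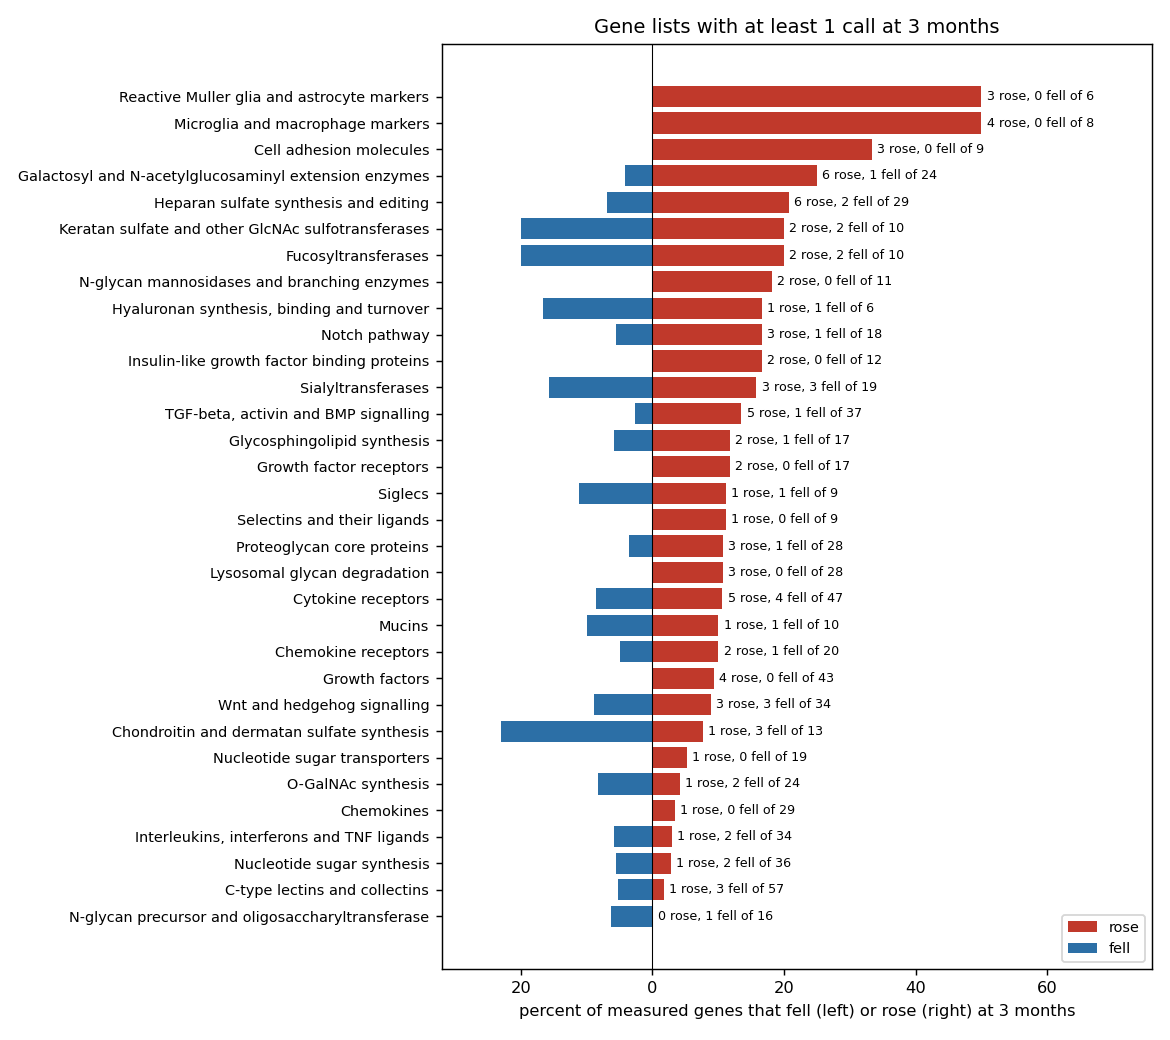
Percent of the measured genes of each list that rose (red, right) or fell (blue, left) in mutant retinas at 3 months, for the lists with at least 3 measured genes and at least 1 call; labels give the counts. The reactive Müller glia and astrocyte list (3 of 6) and the microglia and macrophage list (4 of 8) have the largest shares of rises in the plot, and chondroitin and dermatan sulfate synthesis (3 of 13) the largest share of falls.

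Heparan sulfate, a sulfated chain that binds growth factors and Wnts, had 29 measured genes for its synthesis and editing. Of these 6 rose and 2 fell (median 0.013), against 6.66% and 5.38% of all probe sets. Without mutant replicate 2 there were 2 rises and 1 fall, without mutant replicate 3 there were 3 and 1, without normal replicate 1 there were 5 and 0, and without normal replicate 2 there were 2 and 2. Sulf1, which removes 6-O-sulfates from finished chains outside the cell, read 9.07, 9.21 and 9.31 in mutant against 8.62, 8.20 and 8.51 in normal retinas. All mutant arrays were above the highest normal array (0.75 ± 0.11, adjusted p = 4.05e-04), and the call held. Hs6st2, which adds 6-O-sulfates, rose by 0.47 ± 0.12 (adjusted p = 0.0135), a call lost without normal replicate 2 (adjusted p = 0.0874) and without mutant replicate 2 (adjusted p = 0.0577). The 3-O-sulfotransferases Hs3st1 (0.42 ± 0.092, adjusted p = 0.00603) and Hs3st5 (0.31 ± 0.085, adjusted p = 0.0209) rose, and Hs3st1 held. Xylt1, which starts the linker of heparan and chondroitin chains, fell (-0.33 ± 0.08, adjusted p = 0.0107), but not without normal replicate 1 (adjusted p = 0.0501).

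The next 3 lists are given against the 6.66% of all probe sets that rose and the 5.38% that fell. Of 13 genes that build chondroitin or dermatan sulfate 3 fell, Chst3, the polymerase Chsy1 and the chain starter Csgalnact2. Dsel, an epimerase for dermatan sulfate, rose. Chsy1 read 10.04, 9.69 and 9.83 against 10.41, 10.17 and 10.39, without overlap (-0.47 ± 0.12, adjusted p = 0.0153). Csgalnact2 fell by 0.36 on the log2 scale (adjusted p = 0.0179), and Dsel was at 0.47 ± 0.14 (adjusted p = 0.0317). Only Chst3 held, and without mutant replicate 3 or normal replicate 1 it was the 1 call of the list. The median of the list was -0.00022. Among 28 proteoglycan core proteins Tgfbr3, Spock1 (testican, 0.52 ± 0.12, adjusted p = 0.00674) and agrin, Agrn (0.51 ± 0.13, adjusted p = 0.0199), rose, and glypican Gpc2 fell (-0.38 ± 0.11, adjusted p = 0.0326). The list's median was 0.20. Fmod, Dcn and Vcan, of connective tissue matrix, gave 0.95 ± 0.36, 0.77 ± 0.51 and 0.74 ± 0.32 and did not pass. Of 10 sulfotransferases for keratan sulfate and other glycans 2 rose and 2 fell. Chst2, which sulfates GlcNAc, read 8.50, 8.67 and 8.97 against 7.91, 8.09 and 8.16 with no overlap (0.66 ± 0.14, adjusted p = 0.00388) and was the one of these that held, while Chst5, a related enzyme, fell (-0.36 ± 0.11, adjusted p = 0.0319).

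Enzymes that extend glycan chains with galactose and GlcNAc had 6 rises against 1 fall among 24 genes (median -0.0061). Over all probe sets 6.66% rose and 5.38% fell. After quantile normalization the list had 5 rises against 3 falls, and without mutant replicate 2 or 3 it had 2 against 1. B4galt1, the main enzyme of beta-1,4-galactose on N-glycans, fell, with 9.03, 8.64 and 9.03 in mutant against 9.40, 9.42 and 9.43 in normal retinas (-0.52 ± 0.10, adjusted p = 0.00174), and held. Its relatives B4galt6 (0.79 ± 0.18, adjusted p = 0.0093) and B4galt5 (0.51 ± 0.12, adjusted p = 0.00941), which make lactosylceramide, rose, but neither held. B4galt6 read 8.20, 8.73 and 8.15 against 7.25, 7.78 and 7.67. B3galt1, a beta-1,3-galactosyltransferase, rose at both its probe sets (0.61 ± 0.12 and 0.59 ± 0.11, adjusted p = 0.00252 and 0.00174), and both held. B3gnt2, which extends polylactosamine, gave 0.52 ± 0.14 (adjusted p = 0.0199) and was lost without mutant replicate 2, mutant replicate 3 or normal replicate 1.

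Of 24 genes of O-GalNAc synthesis 3 passed, near the share of all probe sets (12%): Galnt4 and Galnt10 fell and Galnt13 rose (0.65 ± 0.18, adjusted p = 0.0237), and Galnt4 held. Galnt10 read 9.12, 8.69 and 9.29 against 9.71, 9.52 and 9.45 (-0.52 ± 0.16, adjusted p = 0.0376) and was lost without mutant replicate 2 (adjusted p = 0.201), normal replicate 1 or normal replicate 2. Galnt1 gave 0.60 ± 0.20 and did not pass (adjusted p = 0.0574). Of 19 sialyltransferases 3 rose and 3 fell, against 12% of all probe sets called. Without mutant replicate 2 or 3 or normal replicate 1 or 2 there was 1 call. St8sia1, the GD3 synthase, fell by 0.56 on the log2 scale (adjusted p = 0.0199), and St8sia3, an oligosialic acid transferase, rose by 0.45 ± 0.11 (adjusted p = 0.014). St6gal1, which caps N-glycans with alpha-2,6 sialic acid, rose by 0.34 ± 0.11 (adjusted p = 0.0421), and no sialyltransferase call held. Of 10 fucosyltransferases Fut8 and Fut9 rose and Fut2 and Fut7 fell, and none held. Centring each array left 0 rises and 1 fall in number there, as did quantile normalization. Of 11 mannosidases and branching enzymes Man2a1 (0.51 ± 0.14) and Mgat4c (0.39 ± 0.084) rose, and Mgat4c held at a signal below the 25th percentile.

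Genes of precursor supply and turnover are given against the 12% called over all probe sets. Of 28 lysosomal glycan-degrading enzymes Hyal1, Aga and Arsb rose by 0.36 to 0.48 and none held. After quantile normalization this list had 3 rises and 5 falls. Of 36 genes of nucleotide sugar synthesis Pgm2 rose (0.44 ± 0.10, adjusted p = 0.00941, held) and Pmm1, which makes mannose-1-phosphate, fell (-0.48 ± 0.13, adjusted p = 0.0267), as did Gfpt1 (-0.32 ± 0.094). Of 19 transporters Slc35f1 rose (0.48 ± 0.10, held). Of 16 genes of the N-glycan precursor and its transfer Alg10b fell (-0.38 ± 0.094), and none of 9 O-mannose genes or 5 genes of glycan quality control passed.

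Galectins, glycan binders that the design text of the study names, gave no call among 10 genes (median -0.051). Lgals9 (galectin-9) gave 0.65 ± 0.22 (adjusted p = 0.061) and Lgals3 (galectin-3) 0.51 ± 0.36 (adjusted p = 0.347), and the groups of both did not overlap at 3 months. With the 3 arrays of high Grifin left out Lgals9 passed (adjusted p = 0.0289), and likewise in the 6 arrays of 3 months alone (adjusted p = 0.0446), while Lgals3 did not (adjusted p = 0.0861 and 0.0806) except in those 6 arrays with a replicate block (adjusted p = 0.0433). Lgals1 did not pass in either fit (adjusted p = 0.642 and 0.551). Of 57 C-type lectins and collectins 1 rose and 3 fell (median -0.10), against 6.66% and 5.38% of all probe sets. Chodl (chondrolectin) read 5.92, 5.93 and 6.05 in mutant against 5.46, 4.88 and 5.33 in normal retinas (0.75 ± 0.15, adjusted p = 0.00311), and Pla2r1, the M-type phospholipase A2 receptor, fell (-0.49 ± 0.10, adjusted p = 0.00384); both held, and neither showed overlap. Cd209b and Cd207, a DC-SIGN relative and langerin, fell by 0.43 and 0.40 on the log2 scale at signals below the median, and a second Cd209b probe set did not pass. Of 9 siglecs Siglech rose and Siglec15 fell (-0.29 ± 0.078, adjusted p = 0.0209), and neither held.

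Among the 15 largest falls of named probe sets were further Cks2, a cell cycle subunit (-0.62 ± 0.18), and Prdm1, a repressor that sets photoreceptor against bipolar fate (-0.56 ± 0.14). Pfdn6, a chaperone subunit (-0.52 ± 0.17), and Pkd1l2 (-0.46 ± 0.12) were also among them. Without mutant replicate 2 the calls of these 4 genes were lost (adjusted p = 0.136, 0.0612, 0.173 and 0.0659). Cks2 was also lost without mutant replicate 1 and Pfdn6 without mutant replicate 3, and both without normal replicate 1, 2 or 3. Pkd1l2 was also lost without mutant replicate 3 or normal replicate 1 or 2, and Prdm1 without normal replicate 3. Just inside the threshold were Pfdn6, Il18r1, Ifnar2, Muc1 and Extl2, with adjusted p from 0.0493 to 0.0499, and just outside it Ddb1, St3gal6, Junb, Dhh at its second probe set, and Nans, with 0.0516 to 0.053. The 48 genes with several probe sets included 11 with at least 1 call, and in 2 of them, B3galt1 and Siglech, all probe sets passed. Unnamed probe sets gave 21 of the calls, 7 higher and 14 lower. The largest fall of all was one of them, uc009opw.1_psr1_at, at 7.63, 7.64 and 7.67 in mutant against 8.97, 9.83 and 9.99 in normal retinas (-1.95 ± 0.31, adjusted p = 0.00126). Among unnamed rises without overlap the largest was NM_020008.1_psr1_at, at 5.42, 5.47 and 6.63 in mutant against 4.54, 4.40 and 4.39 in normal retinas. Its difference was 1.40 ± 0.26, or 2.64-fold (adjusted p = 0.00174), and it held. Both probe sets are given here outside the naming rule, chosen after their values were seen. So are Cd44, Fmod, Vcan, Fgfr2, Pdgfra, Igfbp7, Galnt1, Siglec1, Mrc1, Cd34, Gnb1, Wnt8a and Shh.

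Most calls of 3 months had the same direction at other ages, whose arrays are separate. All ages share a fit and, for each probe set, an estimate of spread, so their calls are not independent. Of the 150 calls 87 also passed at 4 months, which is 58.0% of the calls of 3 months and 54.0% of the 161 (12.9%) of 4 months, all in the same direction. At 4 months 9.47% of all probe sets were called higher and 3.45% lower, at 2 months 1.52% and 1.93%, and at 1 month 0.241% and 0.0803%. With 2 months 30 were shared (20.0% and 69.8% of the 43, or 3.45%, of that age), and with 1 month 3 (2.0% and 75.0% of 4, or 0.321%). Across the 1246 probe sets, which share the arrays of each age and so are not independent, Pearson's r of the differences at 3 months with those at 1, 2 and 4 months was 0.65, 0.32 and 0.75. The rises of 3 months had median differences of 0.21, 0.20 and 0.53 at 1, 2 and 4 months, and the falls -0.075, -0.079 and -0.22. Btc was 2.08, 1.48, 1.40 and 1.39 higher at 1, 2, 3 and 4 months. Icam1 gave 0.49, 0.54, 1.37 and 1.61, and Egfr 0.21, 0.04, 0.67 and 0.88. Galnt4 gave -0.071, -0.48, -0.78 and -0.71.

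Tests of whether the difference itself changed with age made few calls. The difference at 3 months minus the mean of the other ages gave 0 calls in limma, with 114 at an unadjusted p under 0.05. Against 1 month alone there were 0 (93 unadjusted) and against 4 months 0 (69 unadjusted). Against 2 months 2 passed (0.161%, 232 unadjusted), Tgfbr3 with 1.44 ± 0.25 (adjusted p = 0.0173) and Igfbp5 with 1.31 ± 0.26 (adjusted p = 0.033). At 2 months Tgfbr3 read 7.21, 7.11 and 7.05 in mutant and 7.28, 8.03 and 7.95 in normal retinas, and Igfbp5 8.86, 8.67 and 9.03 against 8.76, 9.67 and 9.54. Normal replicates 2 and 3 of 2 months were the high ones for both, and Dcn was at 6.45 and 6.90 in the same arrays. Neither passed without either of these arrays (adjusted p = 0.0864 and 0.0874 for Tgfbr3, 0.149 and 0.153 for Igfbp5) or without mutant replicate 3 of 3 months (0.0818 and 0.128), and leaving out mutant replicate 2 of 2 months (0.0598 and 0.103) or normal replicate 1 of 3 months (0.054 and 0.0769) also ended both calls. Igfbp5 was further lost without mutant replicate 2, normal replicate 2 or normal replicate 3 of 3 months (adjusted p = 0.0566, 0.0564 and 0.0583). With Dcn as a covariate, chosen after seeing the data, the adjusted p was 0.455 for both, and without the 3 arrays of high Grifin 0.288 for both. Same-numbered mutant and normal arrays of 2 months deviated together (r of 0.33, 0.66 and 0.25), and with the replicate block neither passed (adjusted p = 0.0756 for Tgfbr3 and 0.089 for Igfbp5).

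**Figure D5:**
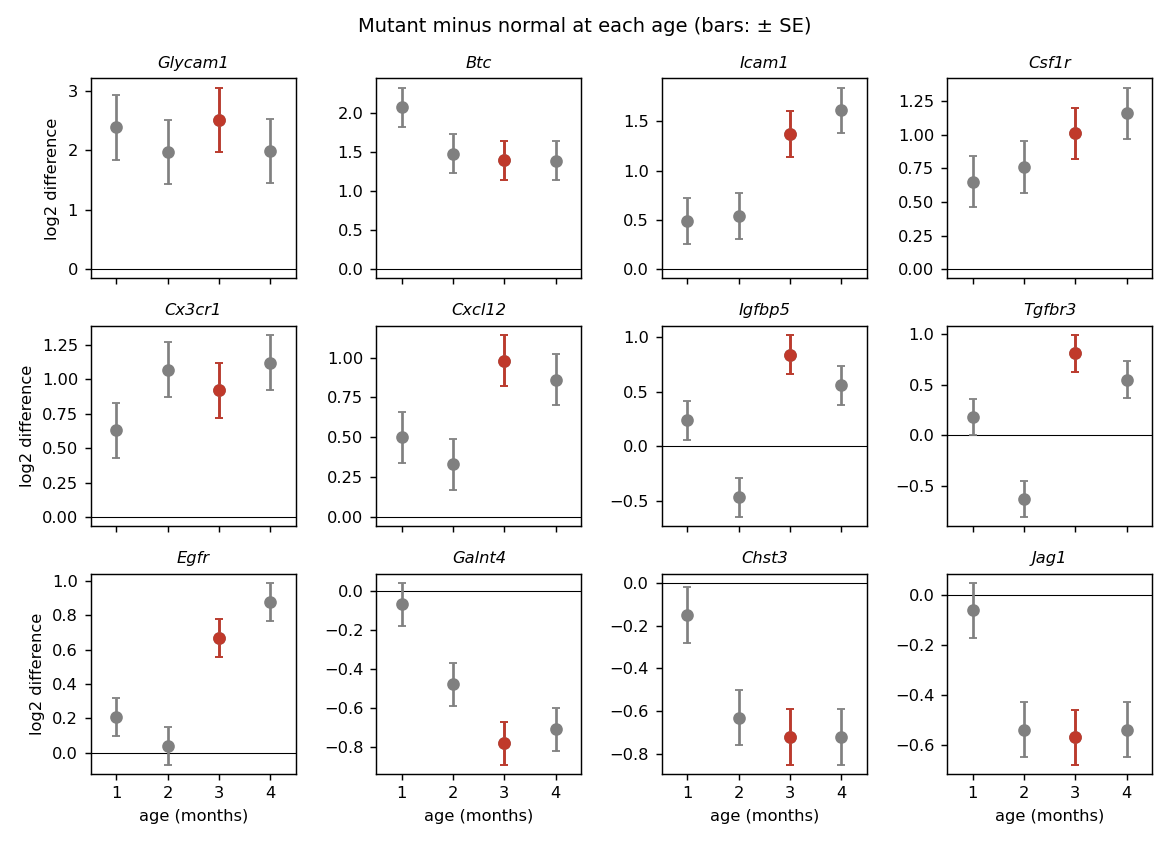
Log2 difference between mutant and normal retinas (vertical axis, with a separate scale in each panel) at 1 to 4 months (horizontal axis) for 12 genes, with limma's standard error as bars; 3 months is in red. Glycam1 and Btc were higher at every age shown, the difference of Icam1 was 0.49 at 1 month and 1.37 at 3 months, and Tgfbr3 and Igfbp5 were negative at 2 months.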

How the data were processed

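Retinal RNA was hybridised to an array after biotin labelling by an Affymetrix protocol, per the labels' protocols. The deposited values are log2 signals made by the authors with RMA, per the submitters' processing notes; its settings are not given in the sources used here. Probe sets were named by matching the accession in their identifier to RefSeq's gene table. No further scaling was done. In R 4.3.3 with limma 3.58.1 all 24 arrays entered a model of 8 group means (16 residual and 4.37 prior degrees of freedom), since an exact test of 3 against 3 cannot go below p = 0.1. Tests were two-sided, p-values were adjusted by Benjamini-Hochberg across all 1246 probe sets with a threshold of 0.05, and errors after ± are standard errors. Lists used the probe set of highest mean signal per gene and were counted, not tested. Named genes were the 15 largest rises and 15 largest falls that passed without overlap, up to 5 that passed from each list with 3 or more measured genes (the 2 of smallest p where none passed), 5 fixed genes (Lgals1, Lgals3, Lgals9, Grifin, Dcn), those passing a contrast between ages, 5 on either side of the threshold, and further probe sets of these genes. Members, lists and tests were chosen with earlier results of these data known. Same-numbered mutant and normal arrays deviated with r of 0.01, 0.04 and -0.01 at 3 months, but with 0.33, 0.66 and 0.25 at 2 months; with 3 of 12 pairs above 0.1, numbers were not taken as pairs in the fit over all ages. The fits were tested on simulated data. Alternatives were other scalings, filters, variance models, subsets of arrays and thresholds. One result is not reported here.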

Additional observations from a re-analysis of the deposited data

Results flagged for a closer look

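For 2 probe sets the genotype difference at 3 months minus that at 2 months passed in limma with all arrays, but both calls were lost in several other fits. Tgfbr3 gave 1.44 on the log2 scale (± 0.25, adjusted p = 0.0173) and Igfbp5 by 1.31 (± 0.26, adjusted p = 0.033). The adjusted p was 0.0756 and 0.089 with the replicate block, 0.288 for both without the 3 arrays of high Grifin and 0.455 for both with Dcn as a covariate, and both calls were also lost without normal replicate 2 or 3 of 2 months. All 3 mutant arrays exceeded all 3 normal arrays at 3 months for both. At 2 months the mutant arrays of Tgfbr3 all read below the normal ones, and those of Igfbp5 did so for normal replicates 2 and 3 but not 1.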

How the results depend on the processing

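The 150 calls of 3 months became 157 with each array centred on its median, 185 with quantile normalization again, 140 and 116 with probe sets below the 25th percentile or the median of signal left out, 144 with an intensity trend, 151 with a robust fit, 101 with array weights and 136 without the 3 arrays of high Grifin. With Dcn as a covariate, chosen after seeing the data, there were 110. The count fell to 40 in the 6 arrays of 3 months alone, which leave 4 residual degrees of freedom, to 50 at an adjusted p under 0.01 and to 55 at an absolute log2 difference of at least 0.5. The share of rises was 55.3%, 61.8% after centring and 47.6% after quantile normalization. With the replicate block the count was 146 (91 higher, 55 lower), and 80 with the block in the 6 arrays alone; the numbers go with shared deviations at 2 months only. Leaving out each array in turn gave 66 to 148. Against 2 months the 2 calls became 4 after centring, 1 after quantile normalization, and 0 without the arrays of high Grifin, with the replicate block, at an adjusted p under 0.01 and with Dcn as a covariate; leaving out arrays gave 0 to 35. Against 1 month 0 became 1 after centring and 1 with array weights, and leave-outs gave 0 to 4. Against the mean of the other ages the replicate block gave 1. Of 127 named probe sets 4 changed sign at 3 months under at least 1 of these alternatives, Cd22 and the second probe sets of Cxcl12, Egfr and Tgfbr2, and 0 of these had passed. Signal over background is not known, which limits what can be said of genes below the 25th percentile.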
